A study of Mus musculus with 54 samples.

Results

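CTCF-only peaks kept in the compound mutant are the sites at which CTCF was found without its paralog BORIS in WT mouse testis and at which a CTCF peak was also listed in testis with 1 intact *Ctcf* allele and no intact *Boris* allele. They numbered 15142, which is 43.7% of the 34625 CTCF peaks of WT testis and 53.0% of the 28551 that overlapped no BORIS peak. The peaks were selected on measured values, namely the WT CTCF, WT BORIS and mutant CTCF peak lists, with 1 bp or more of overlap. Heights and widths in these lists are therefore given as a description, without a test. The other 13409 CTCF-only peaks, which overlapped no mutant CTCF peak, are called lost.

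CTCF is a zinc finger protein that binds a long DNA motif, with the central fingers on a conserved core. It stops the cohesin ring as cohesin extrudes chromatin, so that pairs of CTCF sites facing each other anchor loops and domain borders. BORIS, encoded by *Ctcfl*, has a nearly identical zinc finger region and is normally made in male germ cells.

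All mice were C57BL/6 males of 3 months. WT mice were *Ctcf*+/+ *Boris*+/+, CTCF HET mice *Ctcf*+/- *Boris*+/+, BORIS KO mice *Ctcf*+/+ *Boris*-/- and compound mutant mice (CM, named DKO in the labels) *Ctcf*+/- *Boris*-/-. CTCF, Pol2 and H3K4me3 were mapped by ChIP-seq in WT and CM germ cell-enriched preparations from 4 mice each, and BORIS in WT. CM mice keep an intact *Ctcf* allele, so the model lowers CTCF and does not remove it. RNA-seq named whole testis in the labels had 3 libraries for each of the 4 genotypes, each from its own germ cell-enriched preparation of 4 mice, with 10437683 to 42055813 counts per library. One peak list was deposited per antibody and genotype, so shares of peaks carry counting error only, as Wilson 95% intervals, and the depth behind the lists is unknown. Peaks that lie close together can share their chromatin and are no independent replicates, and the p-values over peaks ignore this.

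The kept peaks carried the CTCF motif far more often than the lost ones. A core motif was learned on the CTCF/BORIS peaks, which are not among the kept CTCF-only peaks, and its consensus was NNCCACCAGGGGGCGCNNNNNNNN. Both strands were searched within 50 bp of the summit, with a score threshold that 1e-04 of random positions pass. To show what such sites look like, the lines below give the best match in the 6 kept peaks with the highest CM heights, in 2 of the 3 lost peaks with the highest WT heights and in the kept peak near *Shh*. The 2 lost sites scored 20.2 and 23.7 and the 6 kept ones 12.2 to 19.1, so these single sites do not show the difference between the classes. The third lost peak had no match and no line. Capitals mark the core match, and the first 10 letters of each line are the place of an upstream element described further on. Positions are mm9 (NCBIM37), and each line reads 5′ to 3′ along the motif.
Kept, intron of *Tbc1d2*, chr4:46624266-46624319, plus strand: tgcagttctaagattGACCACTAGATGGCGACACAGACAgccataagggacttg
Kept, intron of *Fam113b*, chr15:97158095-97158148, plus strand: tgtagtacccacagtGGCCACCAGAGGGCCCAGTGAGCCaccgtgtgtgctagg
Kept, between genes, chr12:88137001-88137054, plus strand: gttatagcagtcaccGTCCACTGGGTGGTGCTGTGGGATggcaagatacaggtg
Kept, between genes near *Tcf3*, chr10:79909080-79909133, plus strand: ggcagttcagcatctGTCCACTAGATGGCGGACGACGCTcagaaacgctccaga
Kept, between genes near *Ivd*, chr2:118709286-118709339, minus strand: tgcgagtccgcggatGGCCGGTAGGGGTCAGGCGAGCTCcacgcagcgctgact
Kept, between genes near *Mc3r*, chr2:172047333-172047386, plus strand: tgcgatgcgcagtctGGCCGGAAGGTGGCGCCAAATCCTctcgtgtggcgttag
Kept, between genes near *Shh*, chr5:28777894-28777947, plus strand: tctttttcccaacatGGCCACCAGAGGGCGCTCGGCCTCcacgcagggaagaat
Lost, intron of *Myo7a*, chr7:105200668-105200721, plus strand: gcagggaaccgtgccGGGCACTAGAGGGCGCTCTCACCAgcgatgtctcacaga
Lost, intron of *Ifltd1*, chr6:145369121-145369174, minus strand: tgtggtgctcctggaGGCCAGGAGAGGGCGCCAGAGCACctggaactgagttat

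Of the kept peaks, 89.1% (13489 of 15142, 88.6 to 89.6) held a core match, against 51.1% (50.3 to 52.0) of the lost ones. In windows of the same length 2 kb from the summit, the share was 3.92% for kept and 4.39% for lost peaks. The odds of a match were 7.80 times higher in kept peaks (7.34 to 8.30, Fisher's exact test, two-sided, Benjamini-Hochberg adjusted p = 1.00e-300 over 6 features, the smallest value written). Within 20 bins of WT height the odds ratio was 3.53, and within bins of height and GC content 2.10. The median best score was 16.6 in kept and 8.11 in lost peaks. Matches lay on the plus strand in 50.1% of kept peaks, and 67.2% of them were centred within 20 bp of the summit.

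A match to the learned core within 50 bp of the summit was not found in every kept peak. A total of 1653 kept peaks (10.9%) had none at the 1e-04 threshold, with a median WT height of 667 and a median CM height of 261. From the other side, 20.1% of the CTCF-only peaks without a match were kept, 43.8% of those with a match at the 1e-04 threshold but not at 1e-05, and 71.7% (71.0 to 72.4) of those with a match at 1e-05. In the lower 50% of WT heights these shares were 8.53, 23.1 and 40.6%, and in the upper 50% 67.2, 76.5 and 86.5%. The share kept thus rose with motif strength in both ranges of height.

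Within the core, base shares of kept and lost sites differed in both directions. C at core position 4 was present in 99.1% of kept and 94.6% of lost matches, A at position 5 in 87.7 and 66.8%, and A at position 8 in 92.9 and 82.4%, counted from the first letter of the match. G at position 12 was present in 99.1 and 96.6%. The other way round, G at position 6 was present in 51.3% of kept and 60.6% of lost matches, G at position 11 in 68.8 and 72.7%, and G at position 15 in 52.6 and 57.3%. A CpG across positions 4 and 5, a pair in which C can be methylated, was present in 3.51% of kept and 10.8% of lost matches. Across positions 14 and 15 it was present in 38.9 and 40.4%. These base shares were not tested.

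**Figure D1:**
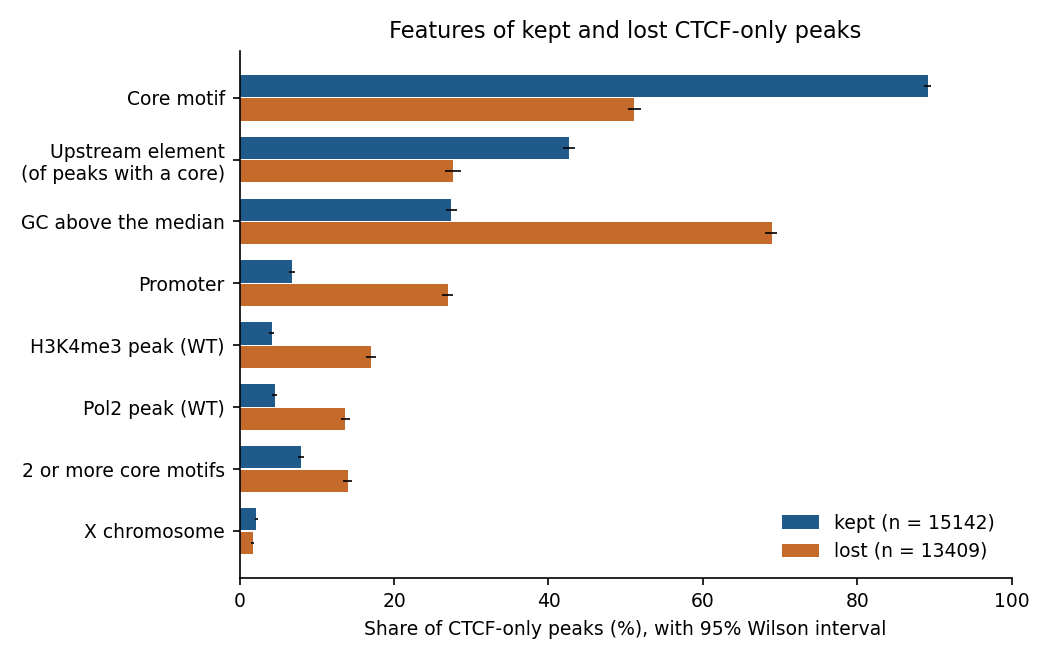
Share of kept (15142) and lost (13409) CTCF-only peaks with each feature, in percent, with Wilson 95% intervals. The core motif was present in 89.1% of kept and 51.1% of lost peaks, while GC content above the median, promoters, H3K4me3 and Pol2 were more frequent among lost peaks. The upstream element is given as a share of peaks with a core match.

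A shorter element upstream of the core was learned on CTCF-only peaks, kept and lost at equal weight, and read TGCAGTNCCC from 15 to 6 bases before the core. It is the place where additional zinc fingers of CTCF are known to contact DNA. Of the kept peaks with a core, 42.7% (5761 of 13489, 41.9 to 43.5) had the element at a score that 0.01 of random positions pass, against 27.7% (26.6 to 28.7) of the lost peaks with a core. The same search 40 bp further from the core found it in 1.00% of kept and 1.43% of lost peaks. Among peaks with BORIS, which are shown for contrast, it was found in 14.6% of those kept and 4.15% of those lost. The element was learned on CTCF-only peaks that are also compared here, with none held out, and not on peaks with BORIS. Neither the contrast of kept and lost peaks nor that with BORIS peaks is therefore independent of the learning. The odds ratio of kept against lost CTCF-only peaks was 1.95 (1.83 to 2.08, Fisher's exact p = 1.48e-99). It was 1.23 (1.14 to 1.32) within bins of WT height, with kept peaks higher in 12 of 20 bins, and it turned to 0.567 within bins of height and GC content, where the GC window includes the element itself.

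The element went with a higher share of kept peaks among the higher peaks. In the lowest of 10 classes of WT height, 17.1% of peaks with core and element and 17.8% of those with a core alone were kept, against 2.48% of those without a core. In class 8 the shares were 92.5, 80.8 and 73.0%, and in the highest class 99.1, 97.9 and 97.8%. The share was higher with the element than with a core alone in classes 6 to 10 and lower in classes 1 to 5, a description with no test in single classes. Among kept peaks, the median CM height was 352 with the element and 313 without, and the median WT height was 1104 and 772.

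**Figure D2:**
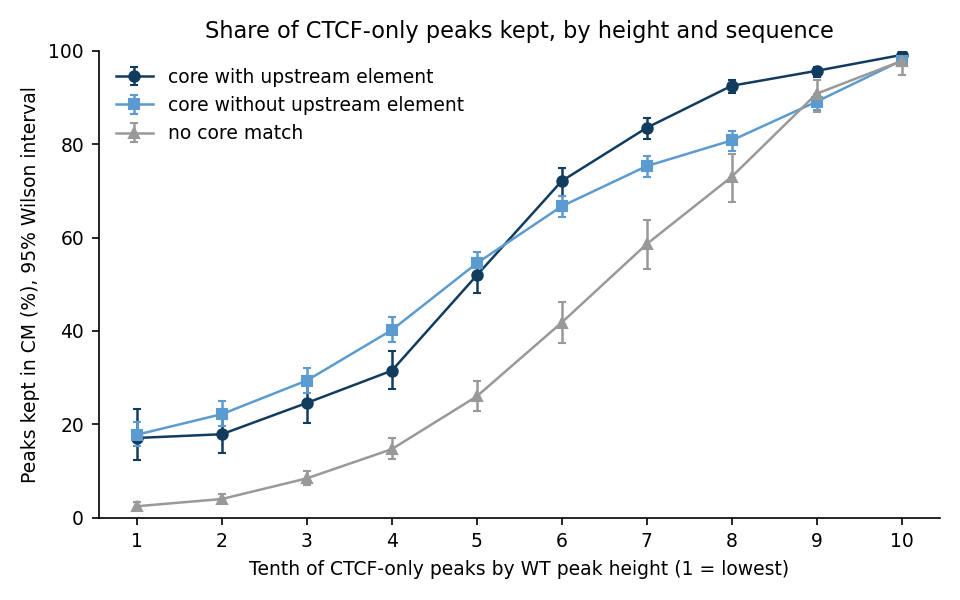
Percentage of CTCF-only peaks kept in CM, with Wilson 95% intervals, in 10 classes of WT peak height from lowest to highest, for peaks with core and upstream element, with core alone and without a core. The lines of peaks with a core lie above that of peaks without one through class 8, from 17.1 and 17.8 against 2.48% in class 1, and meet near 98% in class 10.

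Kept peaks were the higher ones in WT testis, a description of values that the selection used. The median WT height was 902 (25th to 75th percentile 433 to 1690) in kept and 166 (121 to 294) in lost peaks. Of the CTCF-only peaks in the lowest of 10 height classes, 7.81% (6.88 to 8.85) were kept, in class 5 46.6% and in the highest class 98.4% (97.9 to 98.8). In CM the kept peaks had a median height of 320 (204 to 471, range 100 to 968). WT and CM lists have their own scales, so that heights were compared by rank only, and both end at 100.

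The distance between WT and CM summits is bounded by the overlap that the selection required, and is given as a description. WT and CM summits lay a median of 14 bp apart, within 50 bp in 94.1% of peaks and within 100 bp in 98.8%. Only 10 kept peaks shared 100 bp or less with their CM peak, and 106 lost peaks had a CM peak within 100 bp. The nearest BORIS peak lay within 100 bp of 2 kept peaks and within 1 kb of 219. Spearman's rho between WT and CM height was 0.559 over the kept peaks, given as a description.

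**Figure D3:**
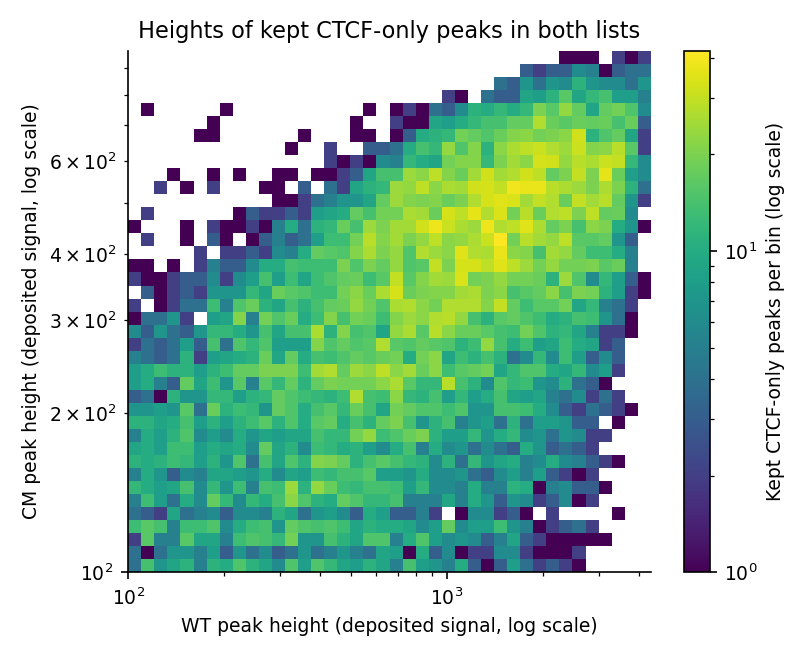
WT against CM peak height (deposited signal, both axes logarithmic) of the 15142 kept CTCF-only peaks, coloured by the number of peaks per bin on a log scale. CM heights rise with WT heights (Spearman's rho 0.559) and spread over the range 100 to 968.

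Kept peaks whose ranks differed between the lists also differed in sequence. With the kept peaks in 4 classes of WT height and 4 of CM height, 1993 (13.2%) were in the highest class of both, and 274 (1.81%) were in the highest class for WT and the lowest for CM. Of the former, 7.53% lay at promoters, 6.62% overlapped H3K4me3 in WT, and 58.2% of those with a core had the upstream element. Of the latter, 21.2% lay at promoters, 14.6% overlapped H3K4me3 and 24.4% had the element. Their median GC content was 54.5 and 59.4%. The opposite corner, lowest for WT and highest for CM, held 63 peaks, with a median GC content of 44.6% and the element in 22.0% of those with a core. These classes were cut from values the rule used, so their shares were not tested.

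Among kept peaks with a match at 1e-05, cut into 3 equal classes of motif score, median WT height was 759, 939 and 1237 from the weakest to the strongest class, and median CM height was 309, 330 and 354. Spearman's rho of motif score was 0.233 with WT height and 0.125 with CM height over all kept peaks, both weak.

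The 10 kept peaks with the highest CM heights lay in introns or between genes, and none overlapped H3K4me3 or Pol2 in either genotype. The first was in an intron of *Tbc1d2*, with a CM height of 968 and a WT height of 2255, the 85.7th percentile of kept peaks. The tenth, in an intron of *Wisp2*, had heights of 910 in CM and 4297 in WT. At the other edge, a peak in an intron of *Col23a1* was kept with heights of 100 in CM and 108 in WT. The lost peak with the highest WT height, 3431 in an intron of *Tmem132c* at chr5:127821527-127821987, had no core match within 50 bp of its summit, whereas the lost peaks in *Myo7a* (3136) and *Ifltd1* (2995) had strong ones, with scores of 20.2 and 23.7.

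GC content near the summit was lower in kept than in lost peaks. The median GC content within 50 bp of the summit was 51.5% in kept and 58.4% in lost peaks, while 2 kb away it was 46.5 and 47.0%. GC content above the median of 54.5% was found in 27.4% (26.7 to 28.1) of kept and 68.9% (68.1 to 69.6) of lost peaks (odds ratio 0.170, 0.162 to 0.179, Fisher's exact p = 1.00e-300, the smallest value written). Kept peaks were lower in 20 of 20 height bins, with an odds ratio of 0.0582. For the GC content 2 kb away the ratio was 0.844. Over the kept peaks, Spearman's rho of the GC content 2 kb away was 0.207 with WT height and 0.0451 with CM height. Whether GC-rich fragments were recovered alike in the WT and CM libraries was not tested.

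Across 5 classes of GC content from lowest to highest, 77.4, 73.0, 60.7, 39.2 and 14.9% of CTCF-only peaks were kept. In the lower 50% of heights the shares fell from 58.9 to 0.499%, and in the upper 50% from 95.9 to 48.7%. Among the kept peaks, median WT height was 474 in the lowest and 2036 in the highest class of GC content. Median CM height was 315 and 320 in the same classes. Spearman's rho of GC content was 0.514 with WT height and 5.78e-04 with CM height, and over the kept CTCF/BORIS peaks 0.642 and -0.0280. In both classes GC content moved with height in the WT list and hardly at all with height in the CM list, values that are descriptions over peaks sharing the same libraries.

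**Figure D4:**
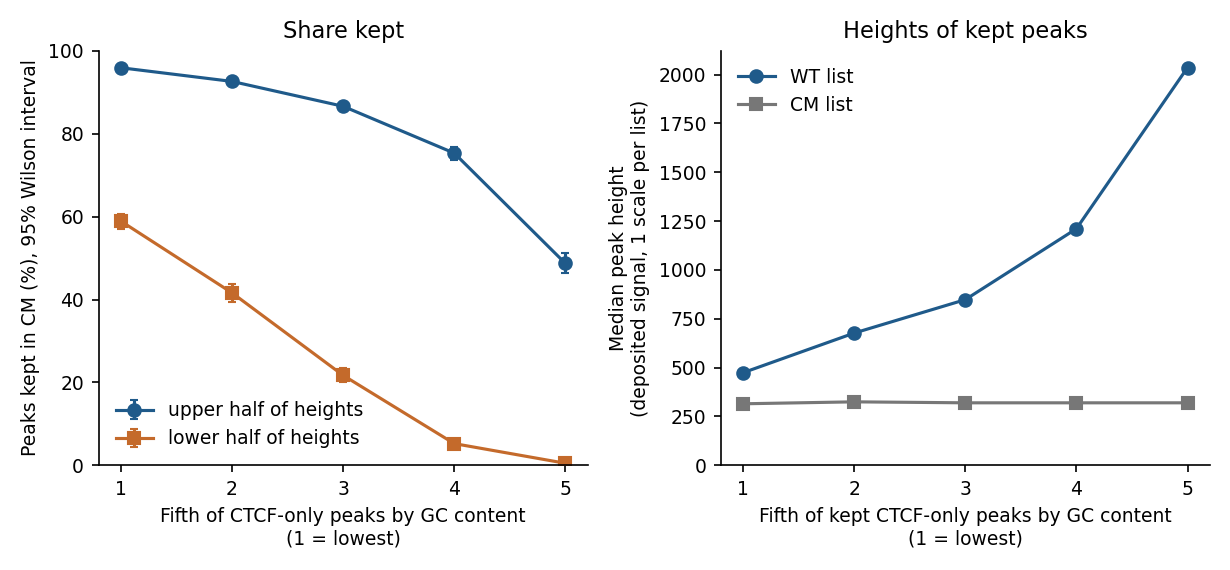
Left, percentage of CTCF-only peaks kept in 5 classes of GC content, with Wilson 95% intervals, for the upper and lower 50% of WT heights. Right, median height of the kept peaks in the WT and CM lists (each on its own scale) by class of GC content: WT medians run from 474 to 2036 and CM medians from 315 to 325.

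Most kept peaks lay away from promoters. A summit within 1 kb of an annotated start was found for 6.80% of kept peaks (1029 of 15142, 6.41 to 7.21) and 27.0% (26.2 to 27.7) of lost ones, an odds ratio of 0.198 (0.184 to 0.213, Benjamini-Hochberg adjusted p = 1.00e-300, the smallest value written). Another 42.5% of kept peaks lay in gene bodies and 50.7% between genes. The ratio for promoters was 0.179 within height bins and 0.684 within bins of height and GC content.

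Marks of active promoters were also less frequent at kept peaks. H3K4me3, the mark of active and poised promoters, overlapped 4.15% (3.84 to 4.48) of kept and 17% (16.4 to 17.7) of lost peaks in WT, an odds ratio of 0.211 (adjusted p = 4.20e-293, Fisher's exact test with Benjamini-Hochberg adjustment). Pol2 overlapped 4.56 and 13.7%, an odds ratio of 0.302 (Fisher's exact adjusted p = 2.08e-164). Within height bins the ratios were 0.135 and 0.310, and within bins of height and GC content 0.541 and 0.773. At promoters alone, H3K4me3 was found at 22.8% of kept and 50.9% of lost peaks. Kept promoter peaks had a core match in 84.3% and lost promoter peaks in 45.5%, and of those with a core 35.5 and 8.58% had the upstream element. In gene bodies H3K4me3 was found at 2.44% of kept and 4.83% of lost peaks, and between genes at 3.07 and 4.12%. Median CM height of the kept peaks was 302 for promoter sites, 309 within genes and 330 elsewhere.

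A total of 402 kept peaks overlapped H3K4me3 in both genotypes, 226 in WT only and 305 in CM only. For Pol2 the counts were 509, 182 and 338. H3K4me3 rests on 1 library per genotype, and the lists differ in size and width, so these counts were not tested.

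Motif pairs were less frequent in kept peaks, a direction that did not hold at equal GC content. Matches at 2 or more places within 150 bp of the summit were found in 7.92% of kept and 14% of lost peaks (odds ratio 0.529, Fisher's exact adjusted p = 4.06e-61). The ratio was 0.329 within height bins, 1.02 within bins of height and GC content, and 1.21 with the motif learned on peaks found in CM only.

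Neighbouring kept peaks lay a median of 61008 bp apart (25th to 75th percentile 19246 to 159452). Orientation was counted over successive kept peaks with a core, and its shares differed between classes of distance. Kept peaks without a core, lost peaks and CTCF/BORIS peaks lying between them were passed over. Under 10 kb, 19.2% (17.5 to 21) of 1878 pairs faced each other and 27.7% faced apart. From 100 kb upward 29.8% (28.6 to 31.1) of 5426 pairs faced each other and 21.6% (20.6 to 22.8) faced apart. For lost peaks, paired in the same way among themselves, the shares under 10 kb were 20.2 (16.9 to 23.9) and 23.6% of 505 pairs. From 100 kb upward the shares for lost peaks were 25.1 (23.8 to 26.5) and 25.8%. These shares were not tested against each other.

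The X chromosome held 331 kept peaks, or 2.19% of them, against 1.69% of the lost peaks (odds ratio 1.30, 1.09 to 1.54, Fisher's exact adjusted p = 0.00270). X-linked kept peaks had a median WT height of 446, against 913 on autosomes, and a median CM height of 261 against 320. Their density was 1.99 per megabase, and 8.97 on chromosome 11, the highest. The ratio was 1.97 within height bins and 0.832 in the upper 50% of WT heights (Fisher's exact p = 0.226). In the latter, kept meant overlap with a CM peak in the upper 50% of CM heights. Its direction thus changed where both the heights included and the meaning of kept were changed.

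Known CTCF loci were listed by name, and 24 of 37 annotated genes had a kept peak within 25 kb, while 22 had a lost one. The share of all annotated genes with such peaks was not counted, so these counts are a description. Around these genes lay 34 kept and 42 lost CTCF-only peaks, each counted once where windows overlapped. Kept and lost peaks numbered 6 and 12 near imprinted genes, 5 and 5 near Hox genes, and 2 and 1 near receptor and globin genes. Near *Ctcf* and *Ctcfl* they numbered 2 and 8. Among imprinted genes, *Meg3*, a maternally expressed noncoding RNA, had a kept peak in an exon, with a WT height of 3769 and a CM height of 209, the 99.1st and 26.6th percentiles of kept peaks. *Airn*, the noncoding RNA that silences the *Igf2r* cluster, had one in an intron with heights of 1582 and 484. Near *Igf2* the heights were 215 and 320, the 9.66th and 50.3rd percentiles. Within 25 kb of *H19*, whose imprinting control region is the best known CTCF-dependent insulator, none was kept and 2 CTCF-only peaks were lost. Whether these 2 lie in that control region was not tested.

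The *Hbb-b1* globin locus kept 1 peak, with heights of 228 in WT and 359 in CM. *Xist* and *Tsix*, the overlapping RNAs of X inactivation, had 4 kept peaks and 1 lost. Around *Shh* 2 peaks were kept and none lost, the higher having a WT height of 3073 and a CM height of 562. *Sox2*, a pluripotency regulator, kept 1 peak of 3338 and 349 and lost 1. *Nanog*, another, kept 1 with heights of 715 and 505, the 41.5th and 79.5th percentiles, and lost 2. *Myc*, a growth regulator, kept 1 with heights of 1569 and 239 and lost 2. The list of developmental genes as a whole had 15 kept and 15 lost peaks. Among the Hox cluster ends, *Hoxa13* kept 2, with the highest at 3412 and 371.

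Genes with a kept peak at the promoter were followed in the whole testis RNA libraries. *Ctcf* was at 47.0, 39.9 and 40.7 CPM, counts scaled to library size, in WT and 27.4, 26.9 and 24.0 in CM (log2 fold change -0.74 ± 0.21, adjusted p = 0.0329 by edgeR's quasi-likelihood test). *Ctcfl* was at 0.531, 0.582 and 0.688 CPM in WT and 0.201, 0.122 and 0.156 in CM, too low to test. Of 682 tested genes with a kept peak within 1 kb of the start, 156 (22.9%) were higher and 39 (5.72%) lower in CM at adjusted p < 0.05 and over 2-fold. Among all 16378 genes tested, 15.3% were higher and 5.90% lower. The median log2 fold change was 0.19, against 0.00 over all genes. Of 2669 tested genes with a lost and no kept promoter peak, 16.4% were higher and 4.23% lower, with a median of 0.09. The counts fell to 1 higher and 0 to 1 lower when CM replicate 3, WT replicate 2 or WT replicate 3 was left out. In the same fits the calls over all genes fell as well, to 2 higher and 2 lower of 16722 tested without CM replicate 3, to 4 and 7 of 16675 without WT replicate 2, and to 1 and 2 of 16895 without WT replicate 3.

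*Rltpr*, which lies beside *Ctcf* on chromosome 8, was the exception and stayed called in each of these fits. Its kept peak, chr8:108209496-108210276, lay 358 bp from its start, with a WT height of 2726 and a CM height of 191. The 3 libraries were at 1.71, 1.10 and 1.55 CPM for WT, at 104, 67.9 and 66.8 for CTCF HET, at 1.87, 0.794 and 1.37 for BORIS KO, and at 80.6, 49.5 and 40.9 for CM. The 2 genotypes with a targeted *Ctcf* allele were high and the other two low, with no overlap. The log2 fold change of CM against WT was 5.24 ± 0.36 (adjusted p = 0.00225, edgeR). The targeted allele and reduced CTCF cannot be told apart.

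Other genes with a kept promoter peak also rose in CM. *Dhcr7*, the last enzyme of cholesterol synthesis, was at 15.5, 12 and 12.4 CPM in WT and 84.3, 36.1 and 55.2 in CM (log2 fold change 2.09 ± 0.31, edgeR adjusted p = 0.0151). *Grn*, a secreted growth factor, was at 8.55, 6.86 and 5.24 and at 79.4, 27.9 and 63.3. *Sardh*, a mitochondrial dehydrogenase, was at 18.7, 15.1 and 9.54 and at 85.0, 49.5 and 109. No CM library overlapped WT in these 3 genes, but genes were named for their small p, which favours such separation. It was not counted over all genes. The other named genes that rose were *Cml3*, *Asgr1*, *Mid1*, *Smarcd3* and *Ocrl*, with log2 fold changes of 2.24 to 3.60 and an edgeR adjusted p of 0.0151 each.

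Genes that fell included *Spata20*, expressed in sperm, at 2863, 2641 and 2291 CPM in WT and 928, 1332 and 868 in CM (log2 fold change -1.34 ± 0.27, edgeR adjusted p = 0.0166). *Theg*, a spermatid gene, was at 247, 289 and 291 and at 66.6, 127 and 119. *Tbata* was at 174, 220 and 195 and at 91.6, 105 and 85.0. In all 3 genes the CM libraries lay below WT, a separation that naming genes by small p favours. The other named genes that fell were *6230409E13Rik*, *Gm2897*, *1700003F17Rik*, *4931408A02Rik*, *Samd4*, *Dnajc5b* and *4930511A02Rik*, with log2 fold changes of -2.32 to -1.17 and edgeR adjusted p of 0.0151 to 0.0181. *Gm2897* may share reads with similar genes, and its counts are uncertain.

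Markers of other cells of the testis moved with genotype in the same libraries. Of the somatic markers, 4 of 5 Sertoli, 4 of 5 Leydig, 4 of 4 macrophage and 2 of 4 stromal genes were higher in CM, with summed CPM of 187 to 302 in WT and 502 to 1034 in CM for Sertoli and of 342 to 533 and 1735 to 3383 for Leydig markers. Macrophage markers summed to 25.5 to 57.4 CPM in WT and 82.2 to 221 in CM, and stromal markers to 36 to 58.2 and 104 to 329. Germ cell markers summed to 6851 to 12529 and 1668 to 8588 CPM, and 0 of 7 passed the threshold for calls. Among the markers, *Amh* (Sertoli) and *Col1a1* (stromal) had a kept peak at the promoter themselves. Of 20 spermatid genes 9 were lower and 0 higher, of 23 meiosis genes 0 passed in either direction, and of 10 spermatogonia genes 2 were higher, against 15.3% higher and 5.90% lower among all genes tested. Of 11 tested genes of cohesin and CTCF, 0 passed. With no fold threshold, the edgeR adjusted p was under 0.05 for 11 spermatid, 2 meiosis and 2 spermatogonia genes. It was also under 0.05 for 1 germ cell marker, *Acrv1*, and 1 gene of cohesin and CTCF, *Ctcf* itself. The 2 meiosis genes, *Spo11* and *Rec8*, were lower in CM, with log2 fold changes of -0.93 and -0.92. Among all genes tested, 16.4% were higher and 8.80% lower with no fold threshold. Per the labels, the RNA came from germ cell-enriched preparations for which collagenase was used to digest away the interstitium, where Leydig cells lie. In such mixed preparations, a change in the share of cells and a change in RNA per cell cannot be told apart, and the part of cell composition in the gene results was not tested. Over all 16378 genes tested, 682 had a kept peak at the promoter. In the cohesin and CTCF list 1 of 12 genes had one. It was *Nipbl*, the cohesin loader, at 642, 654 and 554 CPM in WT and 382, 458 and 334 in CM (edgeR adjusted p = 0.0593). No gene of the meiosis, spermatid and spermatogonia lists had one. The lists are short, and these counts were not tested against the share over all genes.

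**Figure D5:**
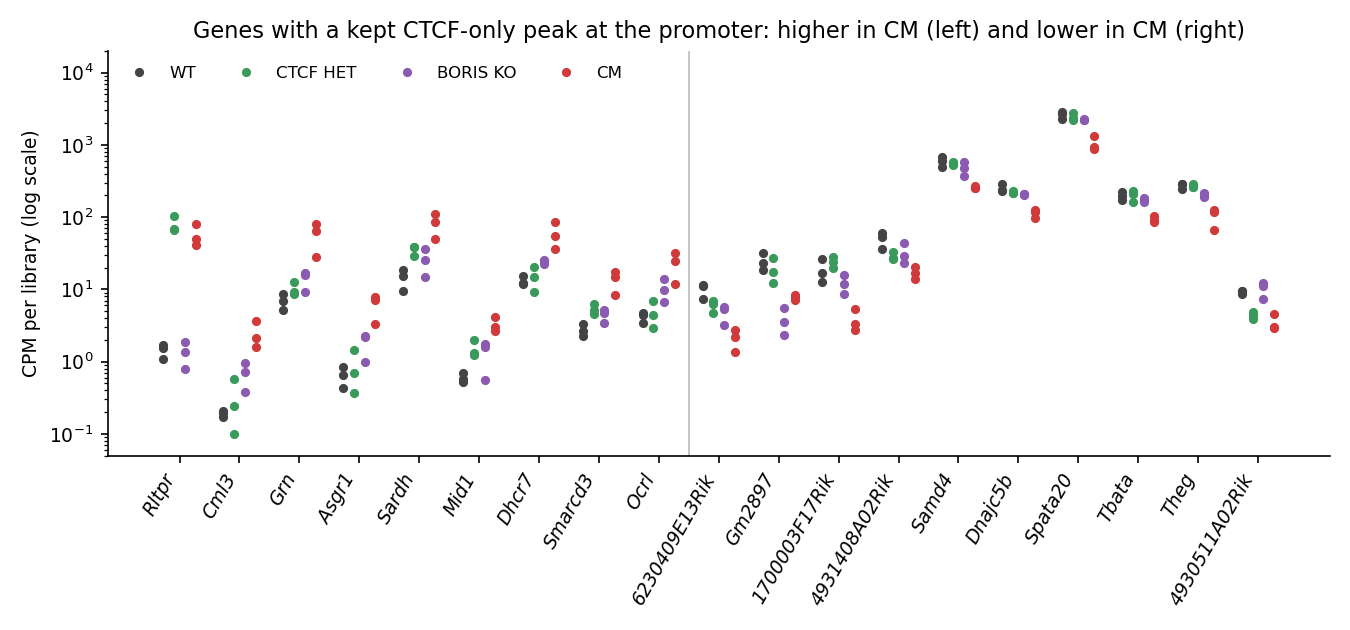
CPM (counts scaled to library size, log axis) of 19 named genes with a kept CTCF-only peak at the promoter, 1 point per library, in the 4 genotypes. *Rltpr* is high in CTCF HET and CM and low in WT and BORIS KO. For the other genes CM stands apart from WT, which their choice by small p favours.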

How the data were processed

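The authors aligned ChIP-seq reads to mm9, called peaks with MACS and divided CTCF and BORIS peaks with PeakSplitter. They deposited CTCF and BORIS peaks with a height, a signal with no stated normalization, and Pol2 and H3K4me3 peaks with a score. How replicates were combined is not given in the sources used here. For whole testis the authors deposited raw counts per gene symbol, with counting tool and strand not given in the sources used here. Members and lists were chosen with earlier results of these data known, and the GC and upstream comparisons and the sequence near *Shh* after values were seen. Genes were those of GENCODE vM1. Fisher's exact test used scipy 1.17.1, and odds ratios within 20 bins of WT height were Mantel-Haenszel estimates. Both motifs were learned here, by expectation-maximisation from the most enriched run of 8 bases for the core. RNA was tested with edgeR 4.0.16 (filterByExpr, TMM, quasi-likelihood F test, Benjamini-Hochberg over all genes tested), with DESeq2 1.42.0 as an alternative. Scripts were tested on simulated data. Named peaks were the 10 kept with the highest and 3 with the lowest CM height, the 3 lost with the highest WT height, and kept peaks within 25 kb of listed genes. Named genes were the 10 called with the smallest p in each direction, of which 1 is not reported here. Deviations from the genotype means correlated above 0.1 in 18 of 18 pairs of like-numbered whole testis libraries (0.121 to 0.631), so the numbers were read as pairing them. Pairs of unlike number reached 0.408, and 8 of 12 libraries correlated best with a library of their own number. The main fit did not use the pairing, which was run as an alternative with a replicate block. Per the labels, the 3 RNA libraries of a genotype came from independent germ cell preparations, with 4 mice pooled in each, so p-values measure the spread between pools. The 23 columns of round spermatid and spermatocyte counts were not used here.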

Additional observations from a re-analysis of the deposited data

How the results depend on the processing

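The kept against lost differences in H3K4me3, Pol2, promoters, core motif and GC content kept their direction and side of the threshold under every alternative run, with odds ratios of 0.135 to 0.608, 0.300 to 0.807, 0.179 to 0.684, 1.79 to 12.1 and 0.0582 to 0.844. The ratio for 2 or more motifs was 1.21 with the motif learned on CM-only peaks and 1.02 within bins of height and GC content. The ratio for the X chromosome was 1.22 among peaks with a motif. In the upper 50% of heights, where kept peaks had to overlap a CM peak of the upper 50%, it was 0.832. The ratio for the upstream element was 0.567 within bins of height and GC content. In the upper 50% of heights of the 3 lists 8014 peaks were kept. The cause was not tested. Genes with a kept promoter peak called higher numbered 341 of 1744 tested (19.6%, against 15.3% of all genes) with a promoter of 3 kb. Those called lower numbered 96 with 3 kb (5.50%, against 5.90% of all genes). With no fold threshold they numbered 62 of 682 (9.09%, against 8.80% of all genes). Leaving out 1 library gave 1 to 189 called higher and 0 to 40 called lower, and a median of 0.18 to 0.35, the latter without CM replicate 2, and 1 to 3303 higher and 2 to 1080 lower over all genes. With the replicate block, 175 were higher and 49 lower, with 3002 and 1418 of all 16378 genes, and the pairing changed no count by over 1.5 times. Repeat share was not run. Depth of the peak lists is unknown, and precision of the gene results was limited by 3 libraries per genotype.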
